A study of Mus musculus with 4 samples.

Results

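The genes described here are 27 immediate-early genes and 13 heat shock genes, 40 of the 32285 genes counted. They were chosen by name as members of both stress-response groups and matched by gene symbol, and all 40 were found. Immediate-early genes are transcribed within minutes of a growth factor, cytokine or stress signal without new protein synthesis, and many encode transcription factors such as Fos, Jun and Egr proteins or feedback regulators of the same signals. Heat shock genes encode chaperones that fold and protect proteins, and the transcription factor HSF1 drives the inducible ones. Both groups are known in skeletal muscle for their induction when tissue is injured or enzymatically dissociated.

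Droplet single-cell RNA sequencing was done on mononuclear cells of 2 muscles, quadriceps and diaphragm, taken at 14 weeks of age. The mice were wild-type (WT) or mdx5cv, a strain with a dystrophin mutation that models Duchenne muscular dystrophy, and all cells had been cryopreserved before capture. Each combination of muscle and genotype is 1 library (always listed as WT quadriceps, WT diaphragm, mdx5cv quadriceps, mdx5cv diaphragm), and the labels do not say which or how many animals it came from. No difference below therefore has a replicate check, no p-value was computed, and genotype, animal and preparation cannot be told apart.

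The libraries held 18837891, 40226833, 62780685 and 49612759 unique molecular identifiers (UMIs, each a counted transcript molecule). 4911, 7516, 8334 and 7402 cells passed the filters, with median depths of 2055, 4355.5, 5328.5 and 4894.5 UMIs, and pairs of libraries shared 5 to 17 cell barcodes. Cells were assigned to classes by marker transcripts, written with the ending -like, and 498, 265, 1269 and 710 cells met no class. The 10 leading genes of each class held 0 markers of another class. In the fibro/adipogenic progenitor (FAP)-like class those genes held 0 of its own gate markers as well and were led by C7 and Pi16, both known in muscle fibroblasts. Values are CPM (the UMIs of a gene over all UMIs of its class and library, on the usual CPM scale), or the percentage of class UMIs. Intervals in brackets are exact 95% counting intervals, which leave out variation between animals, preparations and cells. A gene was counted as higher or lower at a ratio of 1.5-fold or more, and a class was compared where it had at least 50 cells in both libraries.

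The stretch just before the transcription start is shown for 5 members, because it carries the elements by which these groups are known to be switched on. Each run is the 250 bases upstream of the RefSeq start on GRCm38.p6, 5′ to 3′ on the strand of the gene, with motif matches in capitals. In Fos (chr12:85473640-85473889, plus strand) and Atf3 (chr1:191183334-191183583, minus strand) the capitals mark the core of the cAMP response element, TGACGT or its reverse complement. In Zfp36 (chr7:28379229-28379478, minus strand) they mark a CArG box, the site of serum response factor. In Hspe1 (chr1:55087898-55088147, plus strand) they mark overlapping heat shock elements, GAANNTTCNNGAA, and in Hspa1a (chr17:34972157-34972406, minus strand) a pair of heat shock half-sites, GAANNTTC.
Fos: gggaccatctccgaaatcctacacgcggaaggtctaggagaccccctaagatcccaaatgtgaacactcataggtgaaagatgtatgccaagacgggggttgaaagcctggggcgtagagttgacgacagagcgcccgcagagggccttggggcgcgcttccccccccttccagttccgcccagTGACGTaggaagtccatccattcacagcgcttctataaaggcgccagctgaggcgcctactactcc
Atf3: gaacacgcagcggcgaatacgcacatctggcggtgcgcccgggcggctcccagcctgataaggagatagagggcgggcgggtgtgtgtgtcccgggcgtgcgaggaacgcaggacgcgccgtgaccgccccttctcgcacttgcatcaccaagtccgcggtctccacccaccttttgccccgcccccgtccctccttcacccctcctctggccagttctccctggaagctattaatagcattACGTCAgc
Zfp36: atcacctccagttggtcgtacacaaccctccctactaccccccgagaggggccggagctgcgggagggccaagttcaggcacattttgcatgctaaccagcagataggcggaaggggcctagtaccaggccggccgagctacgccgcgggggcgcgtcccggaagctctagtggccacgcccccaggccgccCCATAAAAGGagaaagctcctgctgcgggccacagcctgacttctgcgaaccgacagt
Hspe1: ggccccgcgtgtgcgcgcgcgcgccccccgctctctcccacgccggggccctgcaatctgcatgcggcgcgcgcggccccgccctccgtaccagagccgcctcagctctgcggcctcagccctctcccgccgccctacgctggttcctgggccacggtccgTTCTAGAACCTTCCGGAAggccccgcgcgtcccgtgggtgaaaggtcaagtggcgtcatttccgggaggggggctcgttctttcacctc
Hspa1a: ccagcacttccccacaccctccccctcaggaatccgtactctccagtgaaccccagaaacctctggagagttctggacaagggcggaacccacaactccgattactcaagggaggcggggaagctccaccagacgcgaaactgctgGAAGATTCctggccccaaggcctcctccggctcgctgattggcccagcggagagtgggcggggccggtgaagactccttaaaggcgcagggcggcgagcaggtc

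Windows of 300 bases (250 before and 50 after a start) were matched for 33 members, 23 immediate-early and 10 heat shock, and motifs were searched on both strands in all 32851 windows of the table, which belong to 27025 genes. Fosl1, Egr1, Egr3, Ier2, Hspa8, Hsp90aa1 and Hsp90ab1 had no matched window and were not searched. A gene was counted where any of its windows held the motif. The paired half-sites GAANNTTC or TTCNNGAA were in 16.97% of all genes, in 8 of 10 heat shock genes and in 3 of 23 immediate-early genes (Egr2, Fosl2 and Jun). The 8 include Hspa1a and Hspa1b, nearly identical copies, and Hspd1 and Hspe1, whose annotated 5′ ends overlap on opposite strands. These pairs are not independent in the count. The longer element, which contains paired half-sites, was in 0.662% of all genes, in Hspd1, Hspe1 and Hsph1 and in 0 immediate-early genes. Whether Hspd1 and Hspe1 share the same element was not checked. TGACGT was in 8.37% of all genes, in 7 of 23 immediate-early genes (Atf3, Btg1, Btg2, Dusp1, Egr2, Fos and Nr4a3) and in the heat shock genes Dnajb4 and Hspa5. The CArG box was in 1.81% of all genes, in Egr2 and Zfp36 and in 0 heat shock genes. The AP-1 site TGANTCA, which Fos and Jun proteins bind, was in 8.97% of all genes, in Hspa5 and in 0 immediate-early genes. A match describes letters in the window and not binding, and sites outside the window were not searched.

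FAP-like cells, the resident mesenchymal cells of muscle, had lower summed levels of both groups in mdx5cv than in WT within each muscle, and the WT diaphragm was the high library. Immediate-early genes made up 0.688% (0.68 to 0.697), 1.85% (1.84 to 1.85), 0.436% (0.433 to 0.4402) and 0.573% (0.5697 to 0.576) of FAP-like UMIs. Heat shock genes made up 1.02% (1.01 to 1.03), 2.498% (2.49 to 2.503), 0.752% (0.748 to 0.758) and 1.05% (1.05 to 1.05). The classes held 973, 6259, 1535 and 3116 cells. At an equal depth of 1000 UMIs per cell the median FAP-like cell had 0.4%, 1.6%, 0.3% and 0.4% immediate-early UMIs and 0.7%, 2.2%, 0.6% and 0.8% heat shock UMIs.

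**Figure D1:**
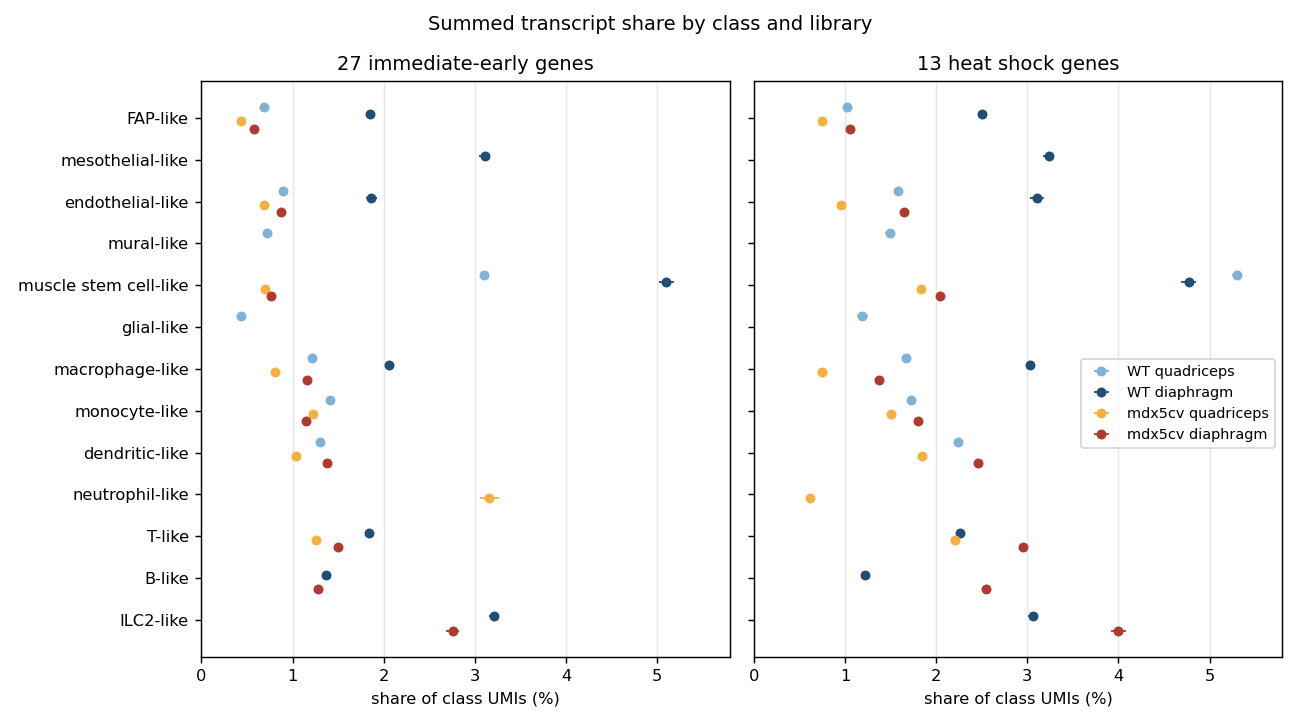
Percentage of class UMIs from the 27 immediate-early genes (left) and the 13 heat shock genes (right) in each marker-gated class with at least 50 cells, by library; points are summed shares and bars exact 95% counting intervals. Muscle stem cell-like cells stand highest of the classes in both WT libraries, with heat shock shares of 5.302% and 4.77%, and B-like cells of the WT diaphragm stand below those of the mdx5cv diaphragm, at 1.22% against 2.55%.

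The Fos and Jun genes encode the partners that form AP-1. Fos (ENSMUSG00000021250; chromosome 12, 85473890 to 85477273, GRCm38) stood at 603, 2698, 306 and 466 CPM in FAP-like cells. The WT diaphragm was the high library and the other 3 lay within a narrower range, and mdx5cv was lower by 1.97-fold (1.87 to 2.08) in quadriceps and 5.79-fold (5.66 to 5.92) in diaphragm. Jund stood at 1353, 3096, 702 and 1210.3 CPM, lower in mdx5cv by 1.93-fold (1.86 to 1.998) in quadriceps and 2.56-fold (2.52 to 2.595) in diaphragm. Jun stood at 482, 1691, 318 and 565 CPM, lower by 1.52-fold (1.43 to 1.61) in quadriceps and 2.99-fold (2.93 to 3.05) in diaphragm. The levels of Fosb were 184, 468, 109.9 and 169 CPM, also lower in both muscles. Junb, at 382, 1532, 298 and 313 CPM, was lower by 1.28-fold (1.21 to 1.37) in quadriceps and 4.899-fold (4.77 to 5.03) in diaphragm, so that its quadriceps ratio stayed under 1.5-fold. Fosl2 went opposite ways, higher by 1.53-fold (1.31 to 1.79) in quadriceps and lower by 1.92-fold (1.77 to 2.09) in diaphragm.

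Fosl1, an AP-1 partner, was higher in both mdx5cv libraries, with 0, 44, 94 and 143 UMIs in FAP-like cells. Against a floor of 3 counts over the class it was at least 9.93-fold higher in quadriceps, and its diaphragm ratio was 5.13-fold (3.63 to 7.36). In barcodes of 10 to 100 UMIs, which hold mostly free RNA, Fosl1 stood at 2.22, 5.004, 3.15 and 6.94 CPM, against 0, 1.45, 8.17 and 7.44 CPM in FAP-like cells. Dusp2, a nuclear phosphatase of MAP kinases known from immune cells, had 5, 59, 121 and 181 UMIs and was higher in mdx5cv by 7.67-fold (3.199 to 24.1) in quadriceps and 4.84-fold (3.59 to 6.61) in diaphragm. Its level in the low barcodes moved the same way, at 13.3, 12.01, 54.6 and 50.4 CPM, and lay above that in FAP-like cells, 1.37, 1.94, 10.5 and 9.41 CPM. The part of free RNA in the Dusp2 difference was not tested.

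Egr1, a zinc finger transcription factor induced by growth factor signalling, stood at 1098, 2611, 515 and 649 CPM in FAP-like cells and was lower in mdx5cv by 2.13-fold (2.05 to 2.22) in quadriceps and 4.02-fold (3.95 to 4.1) in diaphragm. Klf2, a Krüppel-like factor, stood at 374, 424, 135 and 164 CPM and was lower by 2.76-fold (2.56 to 2.97) in quadriceps and 2.58-fold (2.48 to 2.68) in diaphragm. Its low-barcode levels were 551, 383, 240 and 304 CPM, above the FAP-like level in all libraries but the WT diaphragm. The part of free RNA in the Klf2 difference was not tested. Klf4 stood at 462, 486, 178 and 198 CPM and was lower by 2.59-fold (2.43 to 2.77) in quadriceps and 2.46-fold (2.37 to 2.55) in diaphragm. For both Krüppel-like factors the WT libraries of both muscles were high and the genotype ratios of the muscles were close. Atf3, a stress-induced factor of the ATF family, stood at 54.3, 507, 70.4 and 99.3 CPM, higher in mdx5cv by 1.297-fold (1.11 to 1.52) in quadriceps and lower by 5.11-fold (4.87 to 5.36) in diaphragm. Nr4a1, an orphan nuclear receptor, had 64.4, 287, 43.2 and 54.8 CPM and was lower by 1.49-fold (1.27 to 1.75) in quadriceps and 5.23-fold (4.91 to 5.58) in diaphragm. For Atf3 and Nr4a1 the WT diaphragm alone stood apart. In the low barcodes Atf3 stood at 128, 498, 317 and 307 CPM and Nr4a1 at 93.3, 234, 104 and 81.6 CPM. Both lay above their FAP-like levels in all libraries but the WT diaphragm, and the part of free RNA in their differences was not tested.

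Feedback regulators were divided. Dusp1, which dephosphorylates MAP kinases, stood at 488, 1281, 298 and 452 CPM in FAP-like cells and was lower in mdx5cv by 1.64-fold (1.54 to 1.73) in quadriceps and 2.83-fold (2.77 to 2.898) in diaphragm. Ier2 stood at 240, 521, 104 and 126 CPM and was lower by 2.302-fold (2.11 to 2.51) in quadriceps and 4.14-fold (3.97 to 4.32) in diaphragm. Gadd45g stood at 200.2, 525, 101 and 132 CPM and was lower by 1.99-fold (1.81 to 2.18) in quadriceps and 3.98-fold (3.82 to 4.16) in diaphragm. Zfp36, whose protein speeds the decay of AU-rich transcripts, did not share a direction between muscles. Its levels were 138, 511, 167 and 112 CPM, higher in mdx5cv by 1.21-fold (1.09 to 1.33) in quadriceps and lower by 4.55-fold (4.35 to 4.77) in diaphragm. Low-barcode levels of Zfp36 were 159, 472, 512 and 255 CPM, above the FAP-like level in all libraries but the WT diaphragm. What part free RNA had in the Zfp36 difference was not tested. Btg1, an antiproliferative gene, stood at 95.2, 130, 211 and 180 CPM and was higher by 2.22-fold (1.98 to 2.49) in quadriceps and 1.38-fold (1.32 to 1.45) in diaphragm. Ier5, at 37.6, 97.4, 114 and 93.3 CPM, was higher by 3.05-fold (2.55 to 3.66) in quadriceps. Its diaphragm ratio, 1.04-fold lower (0.984 to 1.11), had a counting interval that includes no difference. In the low barcodes Btg1 stood at 139.9, 170, 401 and 349 CPM and Ier5 at 77.7, 98.1, 288 and 204 CPM. Both lay above their FAP-like levels in each library, and the part of free RNA in their differences was not tested.

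The other 8 immediate-early genes are Egr2, Egr3, Ier3, Nr4a2, Nr4a3, Btg2, Klf6 and Gadd45b. Their log2 ratios ran from −0.35 (Btg2) to 1.73 (Egr2) in quadriceps and from −1.86 (Btg2) to 0.16 (Egr3) in diaphragm. Egr2 stood at 5.76, 16.7, 19.1 and 14.6 CPM and Egr3 at 10.1, 14.6, 26.0 and 16.3 CPM, so that for both zinc finger factors mdx5cv quadriceps was the highest library.

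Counted over the group, 19 of 27 immediate-early genes were lower and 2 higher in mdx5cv diaphragm FAP-like cells, where 13.4% of all 13867 genes with enough counts were lower and 16.6% higher. In quadriceps 10 were lower and 9 higher, where 15.5% of 11659 genes were lower and 22.4% higher. The 10 that were lower in quadriceps were lower in diaphragm too (Fos, Fosb, Jun, Jund, Egr1, Ier2, Klf2, Klf4, Dusp1 and Gadd45g). The group's median log2 ratio, with an interval over members, came to −0.08 (−0.74 to 0.71) for quadriceps and −1.47 (−1.99 to −0.43) for diaphragm, beside medians over all genes of 0.07 and 0.08. In quadriceps the group was split by gene, while its summed share over cells of all depths was lower.

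**Figure D2:**
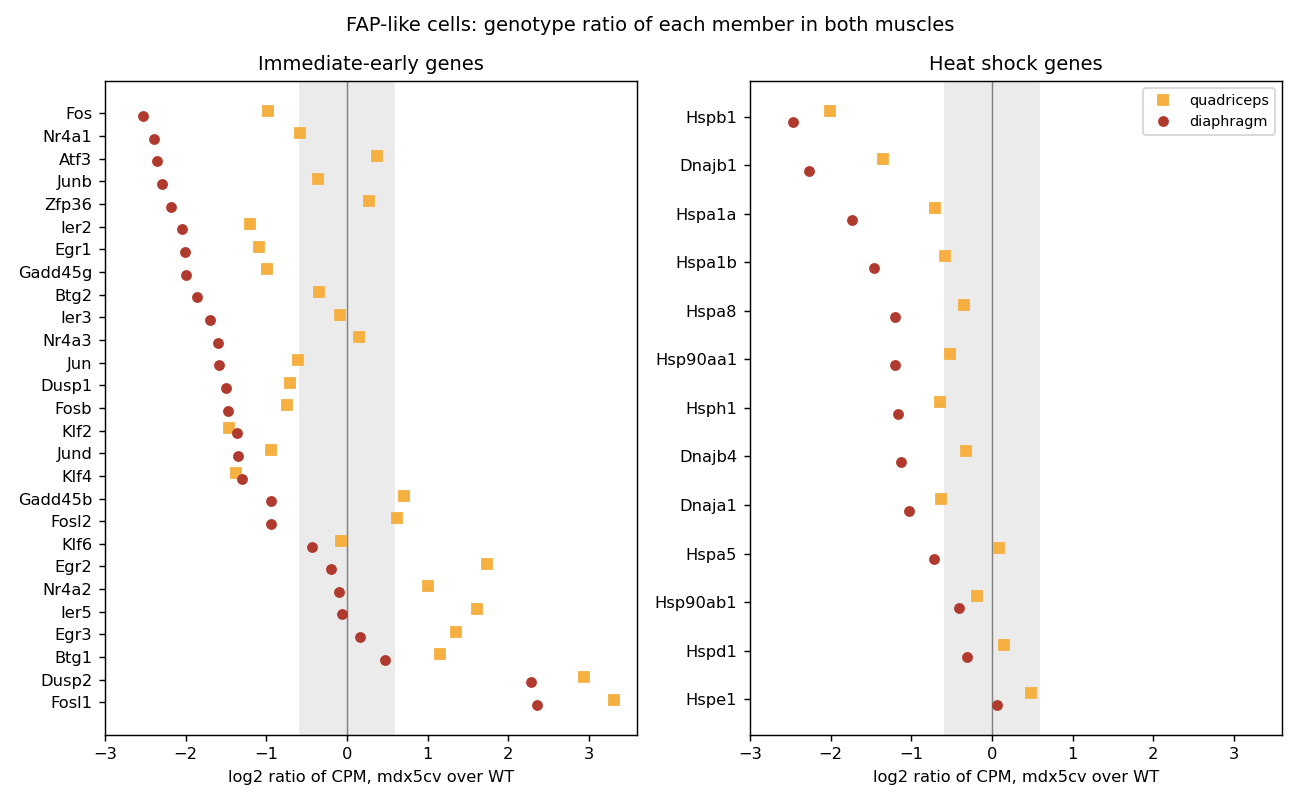
log2 ratio of CPM, mdx5cv over WT, of each member in FAP-like cells, with quadriceps as squares and diaphragm as circles; the grey band spans ratios under 1.5-fold. Fos has the lowest diaphragm ratio of the immediate-early genes (−2.53), while Dusp2 and Fosl1 lie to the right of the band in both muscles; the Fosl1 quadriceps point (3.31) is set against the floor of 3 counts.

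Of the heat shock genes, Hspb1, Hspa1a, Hsph1, Dnajb1 and Dnaja1 were lower in mdx5cv in each muscle, whereas Hsp90ab1, Hspd1 and Hspe1 stayed under 1.5-fold in each. Hspb1, a small heat shock protein that binds unfolded proteins, stood at 710, 2739.7, 177 and 495 CPM in FAP-like cells and was lower in mdx5cv by 4.02-fold (3.79 to 4.26) in quadriceps and 5.53-fold (5.42 to 5.65) in diaphragm. In the low barcodes Hspb1 stood at 2010.3, 2602, 204 and 554 CPM, above the FAP-like level in all libraries but the WT diaphragm. The part of free RNA in the FAP-like Hspb1 difference was not tested. Dnajb1, a co-chaperone that delivers clients to HSP70, stood at 281, 869, 110.1 and 180.4 CPM and was lower by 2.56-fold (2.35 to 2.78) in quadriceps and 4.82-fold (4.65 to 4.99) in diaphragm. Hspa1a, an inducible HSP70 (chromosome 17, 34969190 to 34972156, GRCm38), stood at 1206, 3593, 736 and 1076 CPM and was lower by 1.64-fold (1.58 to 1.699) in quadriceps and 3.34-fold (3.29 to 3.39) in diaphragm. Its neighbour Hspa1b (chromosome 17, 34956436 to 34959238) stood at 2347, 6574, 1566 and 2391 CPM and was lower by 1.498-fold (1.46 to 1.54) in quadriceps and 2.75-fold (2.72 to 2.78) in diaphragm. Hspa1a and Hspa1b are nearly identical copies, so the split of UMIs between them is uncertain. The WT diaphragm was the high library for all 4 of these genes.

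The constitutive HSP70, Hspa8, stood at 1373, 3104, 1078 and 1348 CPM in FAP-like cells and was lower in mdx5cv by 1.27-fold (1.23 to 1.32) in quadriceps and 2.303-fold (2.27 to 2.34) in diaphragm. Hsp90ab1, the constitutive cytosolic HSP90, stood at 1506, 2379.7, 1327 and 1795 CPM and was lower by 1.14-fold (1.1 to 1.17) in quadriceps and 1.33-fold (1.31 to 1.34) in diaphragm. The inducible Hsp90aa1 stood at 711, 1784, 495 and 777 CPM and was lower by 1.44-fold (1.37 to 1.505) in quadriceps and 2.295-fold (2.25 to 2.34) in diaphragm. The mitochondrial chaperonin genes Hspd1 and Hspe1 stood at 148, 269, 164 and 217 CPM and at 217, 356, 304 and 373 CPM. Hspa5, the HSP70 of the endoplasmic reticulum, stood at 1109.6, 2146, 1179 and 1299 CPM, higher by 1.06-fold (1.03 to 1.101) in quadriceps and lower by 1.65-fold (1.63 to 1.68) in diaphragm. Of the remaining co-chaperones and exchange factors, Hsph1 was lower by 1.56-fold (1.42 to 1.73) in quadriceps and 2.23-fold (2.14 to 2.33) in diaphragm. Dnaja1 was lower by 1.55-fold (1.45 to 1.66) in quadriceps and 2.03-fold (1.98 to 2.09) in diaphragm. Dnajb4, an HSP40, stood at 71.9, 161, 57.6 and 73.6 CPM. In all, 5 of 13 heat shock genes were lower in quadriceps and 10 in diaphragm, and 0 and 0 were higher. Of all genes 15.5% and 13.4% were lower and 22.4% and 16.6% higher. The heat shock medians were −0.52 (−0.71 to 0.09) and −1.16 (−1.74 to −0.41).

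Genes of the same pathways outside the 40 were counted in FAP-like cells, where 22.4% of all genes were higher and 15.5% lower in mdx5cv quadriceps and 16.6% and 13.4% in mdx5cv diaphragm. Of 35 other early-response genes, 10 were higher and 1 lower in mdx5cv quadriceps (median log2 ratio 0.27), a share of higher genes near that of all genes, and 1 was higher and 25 lower in mdx5cv diaphragm (median −0.82). Among them Phlda1, at 253, 717, 123 and 326 CPM, was lower in both muscles, and the phosphatase gene Dusp5, at 3.29, 5.63, 13.04 and 10.2 CPM, was higher in both. Of 26 other cytosolic chaperone genes, 1 was higher and 5 lower in quadriceps, and 0 and 7 in diaphragm (medians −0.07 and −0.11). The quadriceps share of lower chaperone genes is near that of all genes. Those lower in both muscles were the small heat shock genes Cryab, at 582, 825, 140.2 and 309 CPM, and Hspb8, at 148, 191, 37.1 and 39.3 CPM, with Dnaja4 and Hspa4l. Of 16 endoplasmic reticulum stress genes, 1 was higher and 0 lower in quadriceps, and 0 and 3 in diaphragm (medians 0.22 and −0.25).

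Between the muscles of WT mice both groups were higher in diaphragm FAP-like cells. In WT 19 of 25 immediate-early genes were higher in diaphragm and 0 lower, and 13 of 13 heat shock genes were higher and 0 lower, where 8% of all genes were higher and 14.2% lower; the medians were 1.39 and 1.17 beside −0.12. Atf3 had the largest ratio of the immediate-early genes, 9.34-fold (8.12 to 10.8), and Fos was higher by 4.47-fold (4.29 to 4.67). Klf2 and Klf4 had ratios of 1.14-fold (1.07 to 1.201) and 1.05-fold (1.001 to 1.11). The heat shock ratios ran from 1.58-fold (1.54 to 1.62) for Hsp90ab1 to 3.86-fold (3.71 to 4.01) for Hspb1. In mdx5cv 7 of 27 immediate-early genes were higher in diaphragm and 2 lower, and 4 of 13 heat shock genes were higher and 0 lower, where 6.76% of all genes were higher and 17.2% lower; the medians were 0.33 and 0.52 beside −0.15. Hspb1 was higher in mdx5cv diaphragm by 2.804-fold (2.67 to 2.94), and Fosl2 was lower there by 2.14-fold (1.94 to 2.35). These muscle comparisons use the same 4 libraries as the genotype comparisons.

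Free RNA, mitochondrial share and depth moved with some of these results. In barcodes of 10 to 100 UMIs immediate-early genes made up 0.609%, 1.46%, 0.731% and 0.765% of UMIs, against 1.04%, 1.91%, 0.776% and 0.905% over all cells. Heat shock genes made up 1.12%, 2.03%, 0.899% and 1.27% there, against 1.72%, 2.52%, 0.987% and 1.46% over all cells. In FAP-like cells the immediate-early shares were 0.688%, 1.85%, 0.436% and 0.573%, below the low-barcode shares in both mdx5cv libraries. Their heat shock shares were 1.02%, 2.498%, 0.752% and 1.05%, below the low-barcode shares in all libraries but the WT diaphragm. The WT diaphragm was thus the highest library for free RNA of both groups as well, and its part in the differences was not tested beyond subtracting that profile at 10% of each class total. The subtraction, chosen after seeing the data, gave FAP-like diaphragm medians of −1.61 and −1.28. WT diaphragm FAP-like cells under 2.5% mitochondrial UMIs had 2.31% immediate-early UMIs, and those between 5% and 10% had 1.403%. In quadriceps FAP-like cells of 1000 to 2000 UMIs the immediate-early share was 0.667% in WT and 0.674% in mdx5cv, so that at this depth it was not lower in mdx5cv. It was 0.689% and 0.615% at 2000 to 4000 UMIs, and 0.6903% and 0.486% at 4000 to 8000. In the diaphragm it was 1.65% in WT and 0.798% in mdx5cv at 1000 to 2000 UMIs.

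Muscle stem cell-like cells, the resident progenitors of myofibres, had the highest share of both groups among the classes compared in both WT libraries. Immediate-early genes made up 3.098% (3.06 to 3.14), 5.1% (5.02 to 5.18), 0.694% (0.682 to 0.707) and 0.766% (0.753 to 0.779) of their UMIs in 314, 107, 208 and 213 cells. Heat shock genes made up 5.302% (5.25 to 5.35), 4.77% (4.69 to 4.85), 1.83% (1.81 to 1.85) and 2.04% (2.02 to 2.07). Fos stood at 6699.5, 9483, 887 and 1250.2 CPM, lower in mdx5cv by 7.55-fold (7.13 to 8.01) in quadriceps and 7.58-fold (7.16 to 8.03) in diaphragm. Atf3 stood at 526, 3248, 96.4 and 164 CPM, lower by 5.46-fold (4.53 to 6.601) in quadriceps and 19.8-fold (17.3 to 22.8) in diaphragm. Both mdx5cv libraries lay below both WT libraries for these genes.

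Hspa1a stood at 12254, 5715, 2423 and 1666 CPM in muscle stem cell-like cells, so that here WT quadriceps was the highest library, and it was lower in mdx5cv by 5.06-fold (4.87 to 5.25) in quadriceps and 3.43-fold (3.22 to 3.65) in diaphragm. Dnajb1 stood at 3275, 4320.2, 397 and 718 CPM and was lower by 8.25-fold (7.57 to 8.99) in quadriceps and 6.01-fold (5.55 to 6.52) in diaphragm. Hsp90ab1, at 3514, 4758, 3471 and 4515 CPM, was lower by 1.01-fold (0.966 to 1.06) in quadriceps and 1.05-fold (0.993 to 1.12) in diaphragm, with counting intervals that include no difference. In quadriceps 15 of 25 immediate-early and 10 of 13 heat shock genes were lower in mdx5cv (all genes 13.9%) and 3 and 0 were higher (all genes 37.5%); the medians were −1.28 (−2.305 to −0.14) and −0.87 (−2.25 to −0.02) beside 0.33. In diaphragm 21 of 22 immediate-early and 10 of 13 heat shock genes were lower in mdx5cv (all genes 11%) and 1 and 0 were higher (all genes 44.2%); the medians were −2.37 (−3.15 to −1.66) and −1.04 (−1.78 to −0.57) beside 0.48. Ier5 was the 1 immediate-early gene that was higher in diaphragm.

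The depth of muscle stem cell-like cells differed between genotypes, with medians of 2072.5, 2229, 5840.5 and 5929 UMIs. At 1000 UMIs per cell their immediate-early shares were 3.104%, 5.28%, 1.41% and 1.29%, and the immediate-early medians of the genotype ratios became −0.89 and −1.71. With cells weighted equally they were −0.58 and −1.59. Cells of the class without a UMI of Myog, Mki67 or Top2a, genes of differentiating and dividing cells, gave −0.93 and −1.72, an alternative chosen after seeing the data.

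Levels were also read against FAP-like cells of the same library. In WT quadriceps 15 of 21 immediate-early and 12 of 13 heat shock genes were higher than in FAP-like cells (all genes 14.2%) and 4 and 0 were lower (all genes 37.5%), with medians of 1.86 and 1.73 beside −0.27. In WT diaphragm 13 of 22 immediate-early and 10 of 13 heat shock genes were higher than in FAP-like cells (all genes 11.4%) and 4 and 0 were lower (all genes 49.6%), with medians of 1.099 and 0.999 beside −0.58. In mdx5cv quadriceps 10 of 27 immediate-early and 12 of 13 heat shock genes were higher than in FAP-like cells (all genes 19.9%) and 5 and 0 were lower (all genes 27.1%), with medians of 0.35 and 1.34 beside −0.01. In mdx5cv diaphragm 10 of 27 immediate-early and 10 of 13 heat shock genes were higher than in FAP-like cells (all genes 20.5%) and 6 and 0 were lower (all genes 32.3%), with medians of 0.01 and 1.22 beside −0.11. With at most 5% mitochondrial UMIs the WT quadriceps immediate-early median was 2.63. At 1000 UMIs per cell the mdx5cv immediate-early medians were 1.36 and 0.77. Between the muscles of WT mice, 14 of 21 immediate-early genes were higher in diaphragm and 0 lower, and 4 of 13 heat shock genes were higher and 2 lower, where 9.83% of all genes were higher and 29.9% lower; the medians were 1.05 and 0.44 beside −0.27. Between those of mdx5cv mice, 4 of 25 immediate-early genes were higher in diaphragm and 3 lower, and 2 of 13 heat shock genes were higher and 0 lower, where 4.65% of all genes were higher and 20.5% lower; the medians were −0.03 and 0.38 beside −0.17.

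Macrophage-like cells had lower summed shares of both groups in mdx5cv than in WT within each muscle. Immediate-early genes made up 1.22% (1.19 to 1.24), 2.06% (2.02 to 2.09), 0.804% (0.801 to 0.808) and 1.15% (1.15 to 1.16) of UMIs in 184, 145, 3363 and 1477 cells, and heat shock genes 1.67% (1.64 to 1.705), 3.03% (2.99 to 3.07), 0.7501% (0.747 to 0.754) and 1.37% (1.36 to 1.38). Junb stood at 1205, 1879, 547 and 857 CPM, lower in mdx5cv by 2.202-fold (2.04 to 2.37) in quadriceps and 2.19-fold (2.07 to 2.33) in diaphragm. Hspa1a stood at 3638, 5560.4, 895 and 1894 CPM, lower by 4.07-fold (3.89 to 4.25) in quadriceps and 2.94-fold (2.83 to 3.04) in diaphragm. Btg1, at 328, 424, 583 and 642 CPM, was higher in mdx5cv by 1.78-fold (1.55 to 2.05) in quadriceps and 1.52-fold (1.35 to 1.71) in diaphragm. Hspa5, at 619, 1158, 990.2 and 1165 CPM, was higher by 1.6-fold (1.45 to 1.78) in quadriceps. In quadriceps 11 of 24 immediate-early and 10 of 13 heat shock genes were lower in mdx5cv (all genes 10.1%) and 3 and 1 were higher (all genes 26.4%); the medians were −0.52 (−0.95 to 0.22) and −1.21 (−2.02 to −0.42) beside 0.17. In diaphragm 16 of 25 immediate-early and 12 of 13 heat shock genes were lower in mdx5cv (all genes 8.59%) and 2 and 0 were higher (all genes 29.4%); the medians were −0.71 (−1.097 to −0.504) and −1.15 (−1.62 to −0.62) beside 0.27.

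Hspb1 stood at 646, 1803, 70.8 and 189 CPM in macrophage-like cells and was lower in mdx5cv by 9.13-fold (8.17 to 10.2) in quadriceps and 9.54-fold (8.87 to 10.3) in diaphragm. The low barcodes of the same libraries held Hspb1 at 2010.3, 2602, 204 and 554 CPM, above the macrophage-like level in each library and in the same order. The part of free RNA in this difference was not tested beyond the subtraction at 10%, which gave log2 ratios of −3.14 and −3.52 beside −3.19 and −3.25.

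Macrophage-like levels were read against those of FAP-like cells in the same way. In WT quadriceps 14 of 21 immediate-early and 6 of 13 heat shock genes were higher than in FAP-like cells (all genes 14.1%) and 3 and 1 were lower (all genes 43.5%), with medians of 1.12 and 0.28 beside −0.42. In WT diaphragm 11 of 24 immediate-early and 6 of 13 heat shock genes were higher than in FAP-like cells (all genes 10.9%) and 3 and 3 were lower (all genes 49.8%), with medians of 0.42 and 0.43 beside −0.58. In mdx5cv quadriceps 16 of 27 immediate-early and 1 of 13 heat shock genes were higher than in FAP-like cells (all genes 21.4%) and 5 and 4 were lower (all genes 39%), with medians of 0.88 and −0.25 beside −0.29. In mdx5cv diaphragm 16 of 27 immediate-early and 3 of 13 heat shock genes were higher than in FAP-like cells (all genes 21.9%) and 3 and 2 were lower (all genes 39.4%), with medians of 1.13 and 0.27 beside −0.28. Between WT muscles, 15 of 25 immediate-early genes were higher in diaphragm and 1 lower, and 12 of 13 heat shock genes were higher and 0 lower, where 9.64% of all genes were higher and 21.6% lower; the medians were 0.86 and 0.905 beside −0.17. Between mdx5cv muscles, 10 of 27 immediate-early genes were higher in diaphragm and 1 lower, and 10 of 13 heat shock genes were higher and 0 lower, where 4.78% of all genes were higher and 8.29% lower; the medians were 0.51 and 1.08 beside −0.08.

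Endothelial-like cells line vessels and are known to use Klf2 and Klf4 as flow-responsive regulators. Immediate-early genes made up 0.896% (0.888 to 0.904), 1.86% (1.805 to 1.92), 0.6901% (0.676 to 0.704) and 0.877% (0.8595 to 0.895) of their UMIs in 2522, 79, 452 and 365 cells, and heat shock genes 1.58% (1.57 to 1.59), 3.11% (3.03 to 3.18), 0.956% (0.9399 to 0.972) and 1.65% (1.62 to 1.67). Klf2 stood at 1645, 1767, 889.7 and 1203 CPM, lower in mdx5cv by 1.85-fold (1.74 to 1.96) in quadriceps and 1.47-fold (1.302 to 1.65) in diaphragm. Hspb1 stood at 4112, 5211, 1368 and 2637 CPM, lower by 3.01-fold (2.87 to 3.15) in quadriceps and 1.98-fold (1.84 to 2.12) in diaphragm. Fos stood at 255, 1636, 343 and 468 CPM, higher in mdx5cv by 1.35-fold (1.21 to 1.499) in quadriceps and lower by 3.497-fold (3.03 to 4.03) in diaphragm. In quadriceps 8 of 25 immediate-early and 7 of 13 heat shock genes were lower in mdx5cv (all genes 9.71%) and 7 and 1 were higher (all genes 18.8%); the medians were −0.28 (−0.65 to 0.43) and −0.61 (−0.895 to −0.26) beside 0.13. In diaphragm 16 of 22 immediate-early and 10 of 12 heat shock genes were lower in mdx5cv (all genes 9.97%) and 0 and 0 were higher (all genes 21.4%); the medians were −1.04 (−1.38 to −0.56) and −0.8995 (−1.403 to −0.76) beside 0.12. Among cells with at most 5% mitochondrial UMIs, 23 of them in the smaller library, those diaphragm medians were −0.07 and −0.66.

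Endothelial-like cells had more heat shock transcript in diaphragm than in quadriceps within each genotype. In WT, 15 of 19 immediate-early genes were higher in diaphragm and 0 lower, and 10 of 12 heat shock genes were higher and 0 lower, where 9.77% of all genes were higher and 24.2% lower; the medians were 0.97 and 1.25 beside −0.16. The WT immediate-early median was 0.16 with at most 5% mitochondrial UMIs and 0.53 at 1000 UMIs per cell. In mdx5cv, 8 of 25 immediate-early genes were higher in diaphragm and 2 lower, and 8 of 13 heat shock genes were higher and 0 lower, where 5.88% of all genes were higher and 14.4% lower; the medians were 0.43 and 0.72 beside −0.09. In WT quadriceps 14 of 26 immediate-early and 3 of 13 heat shock genes were higher than in FAP-like cells (all genes 25.1%) and 5 and 3 were lower (all genes 27%), with medians of 0.72 and 0.18 beside 0.02. In WT diaphragm 6 of 21 immediate-early and 1 of 13 heat shock genes were higher than in FAP-like cells (all genes 15.4%) and 4 and 1 were lower (all genes 34.7%), with medians of 0.25 and 0.26 beside −0.19. In mdx5cv quadriceps 13 of 27 immediate-early and 2 of 13 heat shock genes were higher than in FAP-like cells (all genes 24%) and 5 and 4 were lower (all genes 23.8%), with medians of 0.54 and 0.38 beside 0.07. In mdx5cv diaphragm 17 of 26 immediate-early and 5 of 13 heat shock genes were higher than in FAP-like cells (all genes 25.2%) and 4 and 3 were lower (all genes 25.5%), with medians of 0.87 and 0.295 beside 0.07. Some of these small medians turned under alternatives. In WT diaphragm the immediate-early median was −0.697 with at most 5% mitochondrial UMIs, from 23 cells, and the heat shock median was −0.21 without the deepest 10% of cells. In mdx5cv quadriceps the heat shock median was −0.32 without the deepest cells, −0.32 with cells weighted equally and −0.08 at 1000 UMIs per cell.

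Lymphoid classes had enough cells for a genotype comparison in the diaphragm alone, and heat shock genes of B-like cells had the opposite sign from the classes above. Heat shock genes made up 1.22% (1.198 to 1.25) and 2.55% (2.53 to 2.58) of B-like UMIs in 233 and 495 cells of the WT and mdx5cv diaphragm, and immediate-early genes 1.36% (1.33 to 1.39) and 1.28% (1.26 to 1.29). Hspa1a stood at 751 and 3679 CPM, higher in mdx5cv by 4.9-fold (4.47 to 5.39). Hspa1b stood at 1377 and 5909.7 CPM, higher by 4.29-fold (4.01 to 4.604). Hsph1, a nucleotide exchange factor for HSP70, was higher by 3.599-fold (3.02 to 4.32), Dnajb1 by 2.66-fold (2.37 to 2.98) and Hsp90aa1 by 2.12-fold (1.98 to 2.28). Hspa8 was higher by 1.24-fold (1.17 to 1.31) and Hspa5 lower by 1.13-fold (1.01 to 1.26), both under 1.5-fold. The genes named in lymphoid, dendritic, mural, mesothelial and neutrophil classes were chosen after their values were seen.

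In the diaphragm 1 of 24 immediate-early and 0 of 13 heat shock genes were lower in mdx5cv (all genes 6.86%) and 7 and 8 were higher (all genes 22.5%); the medians were 0.08 (−0.17 to 0.604) and 0.87 (0.398 to 1.89) beside 0.15. Quadriceps held 13 and 10 B-like cells of WT and mdx5cv, too few to compare, with heat shock shares of 1.96% (1.797 to 2.14) and 3.03% (2.77 to 3.32). The B-like share of the WT diaphragm was thus the lowest of the 4, although that library was the highest in FAP-like, macrophage-like and endothelial-like cells. At 1000 UMIs per cell the median B-like cell of the diaphragm had 1.0% heat shock UMIs in WT and 2.4% in mdx5cv. The median mitochondrial share of these cells was 6.69% and 8.08%, and its part was not tested beyond a limit of 5%, which left heat shock and immediate-early medians of 0.57 and −0.89 with 32 cells in the smaller library. In WT diaphragm 5 of 25 immediate-early and 0 of 13 heat shock genes were higher than in FAP-like cells (all genes 11.6%) and 10 and 7 were lower (all genes 59.7%), with medians of −0.47 and −0.66 beside −0.93. In mdx5cv diaphragm 18 of 27 immediate-early and 10 of 13 heat shock genes were higher than in FAP-like cells (all genes 16.3%) and 3 and 1 were lower (all genes 51.7%), with medians of 1.17 and 1.31 beside −0.64.

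**Figure D3:**
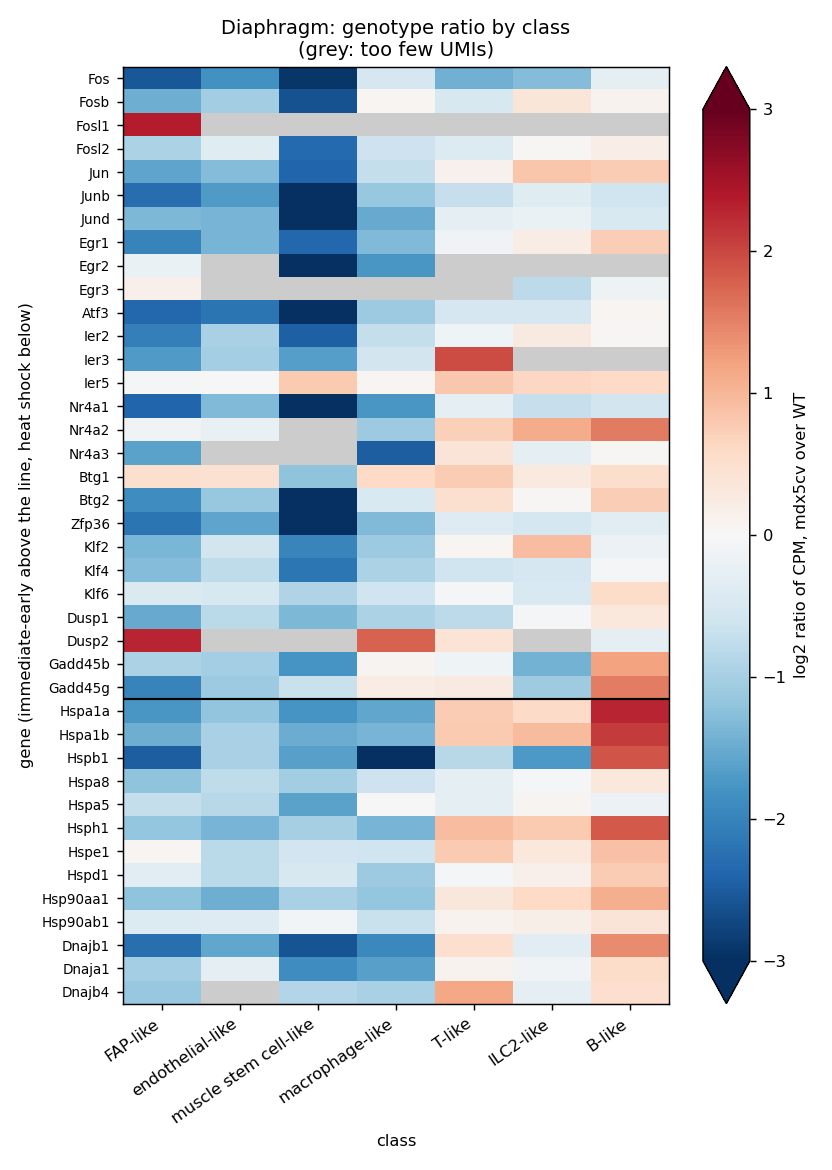
log2 ratio of CPM, mdx5cv over WT, in the diaphragm for each member in 7 classes; red is higher in mdx5cv, blue lower, and grey marks members with too few UMIs. In B-like cells 8 of 13 heat shock genes are at least 1.5-fold higher and 0 lower (all genes 22.5% and 6.86%), whereas in FAP-like cells 0 are higher and 10 lower (all genes 16.6% and 13.4%).

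T-like cells of the WT diaphragm, mdx5cv quadriceps and mdx5cv diaphragm (136, 201 and 310 cells) had heat shock shares of 2.26% (2.21 to 2.31), 2.21% (2.17 to 2.25) and 2.95% (2.91 to 2.99) and immediate-early shares of 1.84% (1.799 to 1.89), 1.26% (1.23 to 1.29) and 1.496% (1.47 to 1.52). Fos stood at 2249.8 and 831 CPM in WT and mdx5cv diaphragm T-like cells, lower in mdx5cv by 2.71-fold (2.43 to 3.01). Hspa1a stood at 2859.6 and 4843 CPM, higher by 1.69-fold (1.58 to 1.82). Between genotypes in the diaphragm 4 of 24 immediate-early and 1 of 13 heat shock genes were lower in mdx5cv (all genes 7.21%) and 4 and 5 were higher (all genes 28.8%); the medians were −0.12 (−0.41 to 0.38) and 0.34 (−0.26 to 0.78) beside 0.21. A higher count of 5 of 13 heat shock genes lies near the background. Between the mdx5cv muscles, 7 of 24 immediate-early genes were higher in diaphragm and 2 lower, and 8 of 13 heat shock genes were higher and 1 lower, where 6.38% of all genes were higher and 21% lower; the medians were 0.18 and 0.65 beside −0.17. In WT diaphragm 9 of 22 immediate-early and 1 of 13 heat shock genes were higher than in FAP-like cells (all genes 13.4%) and 5 and 3 were lower (all genes 54.5%), with medians of −0.01 and 0.17 beside −0.75. In mdx5cv quadriceps 18 of 24 immediate-early and 9 of 13 heat shock genes were higher than in FAP-like cells (all genes 19.6%) and 4 and 1 were lower (all genes 37.3%), with medians of 1.56 and 1.21 beside −0.19. In mdx5cv diaphragm 20 of 26 immediate-early and 10 of 13 heat shock genes were higher than in FAP-like cells (all genes 18.5%) and 5 and 2 were lower (all genes 42.7%), with medians of 1.701 and 1.49 beside −0.36.

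Type 2 innate lymphoid (ILC2)-like cells, tissue-resident producers of type 2 cytokines, ranked next to muscle stem cell-like cells for immediate-early share in WT diaphragm and first in mdx5cv diaphragm, at 3.21% (3.16 to 3.27) and 2.76% (2.69 to 2.83) in 155 and 79 cells. Their heat shock shares were 3.06% (3.01 to 3.12) and 3.997% (3.91 to 4.08). Hspa1b stood at 6799.8 and 13125 CPM, higher in mdx5cv by 1.93-fold (1.83 to 2.04), and Fos at 3814 and 1549 CPM, lower by 2.46-fold (2.18 to 2.78). Between genotypes 5 of 23 immediate-early and 1 of 13 heat shock genes were lower in mdx5cv (all genes 12.2%) and 4 and 3 were higher (all genes 17.1%); the medians were −0.19 (−0.51 to 0.27) and 0.16 (−0.29 to 0.61) beside 0.05. These counts lie nearer the background than those of FAP-like diaphragm cells, a difference that was not tested. In WT diaphragm 14 of 23 immediate-early and 4 of 13 heat shock genes were higher than in FAP-like cells (all genes 12.4%) and 3 and 3 were lower (all genes 54%), with medians of 1.04 and 0.45 beside −0.72. In mdx5cv diaphragm 17 of 20 immediate-early and 10 of 13 heat shock genes were higher than in FAP-like cells (all genes 12.4%) and 3 and 2 were lower (all genes 50.3%), with medians of 2.28 and 1.85 beside −0.6001. Natural killer-like cells numbered 6, 13, 48 and 22 and were not compared.

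Dendritic-like cells, which present antigen, were compared in WT quadriceps, mdx5cv quadriceps and mdx5cv diaphragm (74, 463 and 274 cells). Immediate-early genes made up 1.303% (1.27 to 1.34), 1.04% (1.03 to 1.05) and 1.38% (1.36 to 1.39) of their UMIs and heat shock genes 2.24% (2.196 to 2.29), 1.85% (1.83 to 1.86) and 2.46% (2.44 to 2.48). Egr1 was lower in mdx5cv quadriceps by 2.37-fold (1.92 to 2.897), and Btg1 was higher by 1.75-fold (1.49 to 2.08). Between genotypes in quadriceps 5 of 24 immediate-early and 5 of 13 heat shock genes were lower in mdx5cv (all genes 8.38%) and 5 and 0 were higher (all genes 29.4%); the medians were −0.13 (−0.53 to 0.37) and −0.44 (−0.87 to −0.21) beside 0.23. Between the mdx5cv muscles, 6 of 26 immediate-early genes were higher in diaphragm and 0 lower, and 8 of 13 heat shock genes were higher and 0 lower, where 4.35% of all genes were higher and 17.8% lower; the medians were 0.45 and 0.69 beside −0.17. In WT quadriceps 15 of 21 immediate-early and 10 of 13 heat shock genes were higher than in FAP-like cells (all genes 12.7%) and 4 and 2 were lower (all genes 54.4%), with medians of 0.98 and 1.25 beside −0.73. In mdx5cv quadriceps 19 of 27 immediate-early and 8 of 13 heat shock genes were higher than in FAP-like cells (all genes 18.7%) and 5 and 2 were lower (all genes 44.4%), with medians of 1.31 and 0.93 beside −0.43. In mdx5cv diaphragm 20 of 27 immediate-early and 9 of 13 heat shock genes were higher than in FAP-like cells (all genes 16.2%) and 2 and 2 were lower (all genes 48.7%), with medians of 1.64 and 1.15 beside −0.55.

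Monocyte-like cells of the same 3 libraries (57, 607 and 259 cells) had immediate-early shares of 1.41% (1.37 to 1.46), 1.22% (1.21 to 1.23) and 1.14% (1.13 to 1.16) and heat shock shares of 1.73% (1.68 to 1.78), 1.503% (1.49 to 1.52) and 1.804% (1.78 to 1.83). Btg1 was again higher in mdx5cv quadriceps, by 1.59-fold (1.33 to 1.92), and Dnajb1 lower, by 1.93-fold (1.53 to 2.398). Between genotypes in quadriceps 1 of 23 immediate-early and 4 of 12 heat shock genes were lower in mdx5cv (all genes 6.23%) and 2 and 1 were higher (all genes 34.6%); the medians were −0.23 (−0.42 to 0.17) and −0.22 (−0.82 to −0.12) beside 0.34. Between the mdx5cv muscles, 5 of 26 immediate-early genes were higher in diaphragm and 4 lower, and 3 of 13 heat shock genes were higher and 0 lower, where 4.71% of all genes were higher and 13.7% lower; the medians were −0.14 and 0.43 beside −0.11. In WT quadriceps 16 of 21 immediate-early and 6 of 13 heat shock genes were higher than in FAP-like cells (all genes 12.2%) and 1 and 3 were lower (all genes 54.3%), with medians of 1.39 and 0.37 beside −0.73. In mdx5cv quadriceps 22 of 27 immediate-early and 7 of 13 heat shock genes were higher than in FAP-like cells (all genes 20.1%) and 2 and 2 were lower (all genes 41.1%), with medians of 1.58 and 0.65 beside −0.32. In mdx5cv diaphragm 22 of 27 immediate-early and 6 of 13 heat shock genes were higher than in FAP-like cells (all genes 19.3%) and 2 and 2 were lower (all genes 42.4%), with medians of 1.19 and 0.57 beside −0.35.

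Mural-like cells, the pericytes and smooth muscle cells of vessels, reached 50 cells in WT quadriceps, where 133 cells had 0.718% (0.687 to 0.751) immediate-early and 1.49% (1.44 to 1.53) heat shock UMIs. There 7 of 21 immediate-early and 4 of 13 heat shock genes were higher than in FAP-like cells (all genes 20.1%) and 4 and 1 were lower (all genes 29.7%), with medians of 0.31 and 0.47 beside −0.05. The other libraries held 7, 28 and 12 mural-like cells, too few to compare, with Fos levels of 5816, 827 and 2078 CPM beside 966 CPM in WT quadriceps. Mesothelial-like cells, which cover the diaphragm, had 3.11% (3.05 to 3.17) immediate-early and 3.23% (3.17 to 3.297) heat shock UMIs in 59 WT cells, and 1.51% (1.46 to 1.56) and 2.26% (2.2 to 2.32) in 43 mdx5cv cells. Their Fos level was 6969 and 2145 CPM. In WT diaphragm 10 of 22 immediate-early and 4 of 13 heat shock genes were higher than in FAP-like cells (all genes 13.9%) and 1 and 1 were lower (all genes 26%), with medians of 0.47 and 0.18 beside −0.07. Glial-like cells of WT quadriceps (71 cells) had the lowest immediate-early share of the classes compared there, 0.429% (0.396 to 0.465). Among them 1 of 16 immediate-early and 3 of 13 heat shock genes were higher than in FAP-like cells (all genes 17.3%) and 10 and 3 were lower (all genes 34.2%), with medians of −1.08 and 0.03 beside −0.13.

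Neutrophil-like cells are short-lived phagocytes that enter injured tissue early. The 56 of mdx5cv quadriceps had 3.16% (3.05 to 3.27) immediate-early UMIs, the highest of the classes compared in that library, and 0.619% (0.572 to 0.669) heat shock UMIs, the lowest. Dusp1 stood at 7610.5 CPM, Zfp36 at 3533 CPM and Hspa1a at 592 CPM. There 13 of 16 immediate-early and 1 of 12 heat shock genes were higher than in FAP-like cells (all genes 14.5%) and 1 and 3 were lower (all genes 58.1%), with medians of 2.597 and −0.38 beside −0.82. The median depth of these cells was 1229.5 UMIs, close to the lower limit of 1000. The other libraries held 4, 9 and 17 such cells, with immediate-early shares of 2.19% (1.85 to 2.58), 3.09% (2.76 to 3.44) and 3.14% (2.94 to 3.35) and heat shock shares of 0.536% (0.372 to 0.749), 0.387% (0.275 to 0.529) and 1.08% (0.966 to 1.21). The heat shock share was highest in the mdx5cv diaphragm, where Hspa1b stood at 2962 CPM. UMIs of Hspa1b were found in 17.6% of those 17 cells and UMIs of Hspa1a in 11.8%, so few cells carried these genes. The lowest heat shock share of the classes compared in that library was 1.05%, in FAP-like cells.

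Which class was highest for a member differed between the libraries. Muscle stem cell-like cells had the highest level of 22 of the 40 genes in WT quadriceps and of 20 in WT diaphragm. They led for 8 in mdx5cv quadriceps, where neutrophil-like cells led for 20, and for 5 in mdx5cv diaphragm, where ILC2-like cells led for 21. Egr1 was highest in muscle stem cell-like and next in FAP-like cells in each of the 4 libraries, with muscle stem cell-like levels of 5279, 5306, 1068 and 1044 CPM. The counts cover classes with at least 50 cells, which differ between libraries. They rest on UMIs summed over cells, so deep cells weigh more. The depth of muscle stem cell-like cells differed between genotypes, and its part in this ranking was not tested.

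In FAP-like and muscle stem cell-like cells both groups varied together from cell to cell. At 1000 UMIs per cell the immediate-early and heat shock shares of FAP-like cells had Pearson correlations of 0.697, 0.55, 0.61 and 0.62 over 973, 6259, 1535 and 3116 cells that share a library. In muscle stem cell-like cells they were 0.64, 0.45, 0.71 and 0.74, in B-like cells of the WT and mdx5cv diaphragm 0.26 and 0.47, and in neutrophil-like cells of mdx5cv quadriceps −0.43. For single genes in FAP-like cells the correlations of Hspa1a with its co-chaperone Dnajb1 were 0.43, 0.25, 0.31 and 0.28, and those with the endoplasmic reticulum chaperone Hspa5 were 0.08, 0.05, 0.04 and 0.03. Those of Fos and Egr1 were 0.58, 0.39, 0.43 and 0.43. The correlations are descriptions, and those of single genes are limited by sparse counts.

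**Figure D4:**
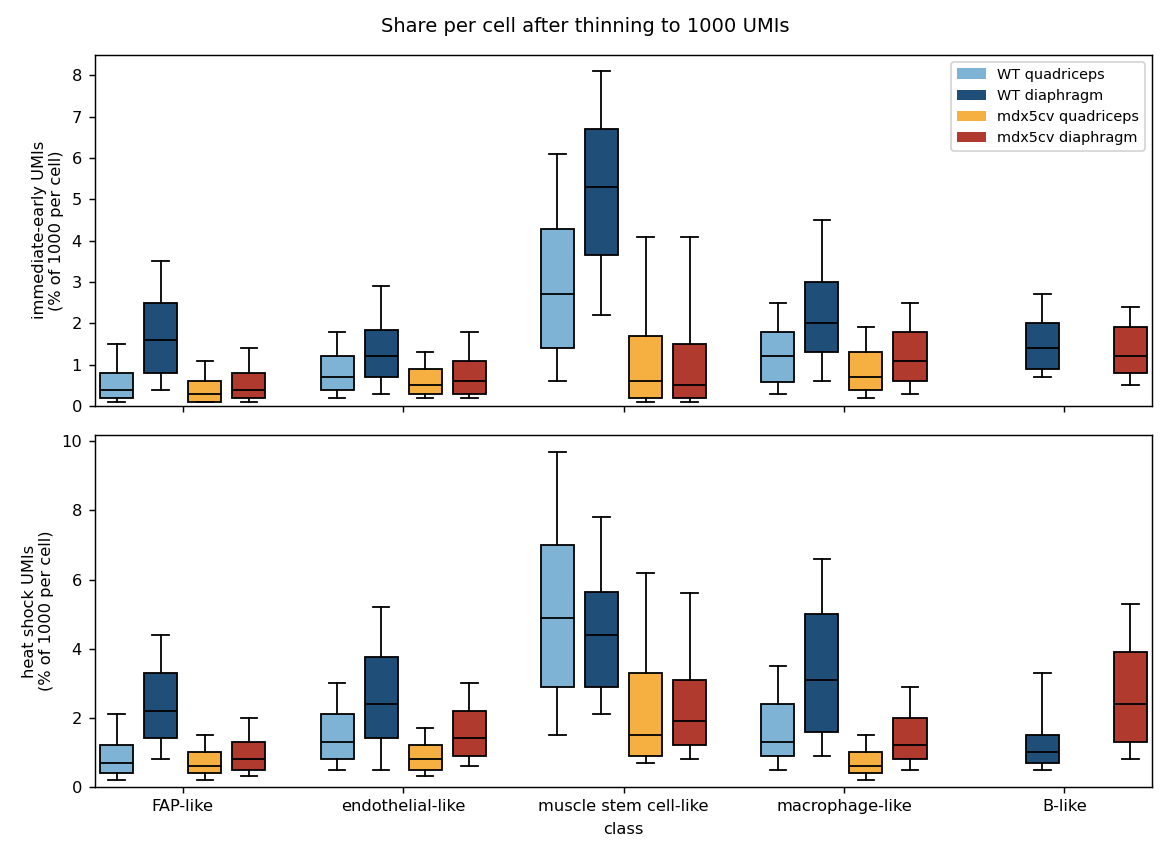
Percentage of 1000 UMIs per cell from immediate-early genes (top) and heat shock genes (bottom) in 5 classes by library; boxes span the quartiles with the median as a line, and whiskers the 10th to 90th percentiles. The median FAP-like cell of the WT diaphragm lies at 1.6% in the top panel, against 0.3% to 0.4% in the other 3 libraries.

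Over 26 groups of class and library with at least 100 cells, the non-member genes whose level was most like the summed immediate-early share included Ppp1r15a (Pearson r of log2 values 0.88), Csrnp1 (0.85), Pnrc1 (0.85) and Ubb (0.84). The summed heat shock share had r = 0.85 with it over the same groups, which share libraries.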

How the data were processed

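Single-cell RNA was measured in 4 libraries, 1 per muscle and genotype. The deposited matrices hold raw counts of UMIs per gene and barcode, unfiltered. The submitters' processing notes name Cell Ranger 5.0.0 and the mm10 build, whereas the file headers name Cell Ranger 4. The annotation and the strand setting are not given in the sources used here. The chemistry was the 10x 3' v3.1 kit, per the labels' protocols, so tags lie near transcript ends.

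Barcodes with at least 1000 UMIs, 500 genes and at most 15% mitochondrial UMIs were kept. Those above the mitochondrial limit numbered 635, 315, 676 and 348. A marker counted as present in a cell when its UMIs exceeded the 99th percentile of a Poisson count from 10% of the cell's UMIs at the profile of barcodes with 10 to 100 UMIs. A cell took the class with the highest fraction of markers present, with at least 2 markers and 1.5 times the next class. This scoring was set after the files had been seen. No doublet caller was run. The gate left out cells under 1.5 times the next class, so cells with some markers of 2 classes could still pass. Cells that passed with only 2 markers or under 2 times the next class were counted as near the gate. They were 361 of 833 dendritic-like, 127 of 275 ILC2-like, 301 of 946 monocyte-like and 252 of 842 muscle stem cell-like cells. Among FAP-like cells they were 428 of 11883, and among macrophage-like cells 523 of 5169.

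Sums of UMIs for each class in a library were turned into CPM, whose ratios have exact conditional 95% intervals. Counts under 3 were set to 3. Genes needed an expected count of 10 in the smaller class total to count as tested, and list medians have order-statistic intervals over members, which describe spread among genes. Shares have exact binomial (Clopper-Pearson) intervals. Thinning drew 1000 UMIs per cell. The likeness of non-members was Pearson's r on log2(CPM + 10).

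All 40 members are reported, with values in every library for those with most UMIs in each role group and those apart the same way in both muscles. Related genes are named where apart the same way in both muscles in FAP-like cells. Members and lists were chosen with earlier results of these data known. Promoter windows matched 33 members (43 windows, RefSeq, GRCm38.p6), and gene positions come from GENCODE M21, where 32158 of 32285 gene identifiers were found.

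On simulated data with 200 genes changed 2-fold in the FAP-like comparison, 97% of doubled and 91% of halved genes were called in quadriceps (11650 genes) and 99% and 96% in diaphragm (13860 genes), with 3.08% and 2.86% of unchanged genes called. The simulated counts were Poisson draws from a pooled profile at the FAP-like depths. They held no variation between animals, preparations or cells, so these rates describe counting noise alone. Alternatives covered the UMI and mitochondrial limits, thinning, a stricter gate, the denominator, equal cell weights, removal of the deepest cells, the count filter and, added after seeing the data, subtraction of the low-barcode profile and muscle stem cell-like cells without Myog, Mki67 or Top2a. Python 3.11.15, numpy 2.4.6, scipy 1.17.1, pandas 2.3.3 and matplotlib 3.10.9 were used.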

Additional observations from a re-analysis of the deposited data

Results flagged for a closer look

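The heat shock genes went opposite ways between classes of the diaphragm libraries. Their median log2 ratio, mdx5cv over WT, was −1.16 in FAP-like, −1.15 in macrophage-like, −0.90 in endothelial-like and −1.04 in muscle stem cell-like cells and 0.87 in B-like cells. Each class had 1 library per genotype, and the difference between classes was not tested.

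Single members went opposite ways between the muscles within a class. In FAP-like cells the log2 ratio of Fosl2 was 0.61 in quadriceps and −0.94 in diaphragm, and that of Gadd45b was 0.71 and −0.94. In macrophage-like cells Fosl2 had 0.72 and −0.63. In endothelial-like cells Fosb had 1.27 and −1.05, Zfp36 had 0.62 and −1.58, and the endoplasmic reticulum chaperone Hspa5 had 0.70 and −0.83. The WT diaphragm had the highest CPM of the 4 libraries for Zfp36 and Hspa5 in endothelial-like cells, at 783 and 813, from 79 cells. With at most 5% mitochondrial UMIs, which left 23 cells of that library, the endothelial-like diaphragm ratio of Fosb turned to 0.7888, the sign it had in quadriceps, and that of Zfp36 was −0.051. In endothelial-like quadriceps cells the lowest ratios over the alternatives were 0.5065 for Fosb, 0.2918 for Zfp36 and 0.3219 for Hspa5, each under 1.5-fold. None of these differences between muscles was tested.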

How the results depend on the processing

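Of 498 recomputed list medians whose main value was at least 1.5-fold, 498 kept their sign and 483 stayed at least 1.5-fold; of 2075 recomputed member ratios, 2066 and 1942 did. Of 43 list medians under 1.5-fold, 10 turned sign under at least 1 setting. The 20 list medians of FAP-like and macrophage-like cells taken as main results stayed within their interval over members under each setting run. Those intervals describe spread among genes and not among settings, so staying within them is a weak check. With at most 5% mitochondrial UMIs, 5 members turned in endothelial-like diaphragm cells: Fosb to 0.7888, Atf3 to 0.1888, Ier3 to 0.661, Btg2 to 0.1787 and Gadd45g to 0.9446 (log2). The same limit turned Ier5 in B-like diaphragm cells to −0.8801 and moved their immediate-early median to −0.8897; fewer cells (23 and 32 in the smaller library) entered these values. In muscle stem cell-like quadriceps cells Zfp36 turned to 0.3511 and Dnajb4 to 0.0598 with thinned cells, and Zfp36 to 0.1544 with cells weighted equally; the cause was not tested. The diaphragm immediate-early median of that class was −1.5949 with equal weights. Some members and classes had too few cells or UMIs for a value at the mitochondrial limit of 5% or after thinning. No paired analysis was possible because each group is 1 library. WT quadriceps was the shallowest library, which limits the low-count members there.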
